A study of Mus musculus with 28 samples.

Results

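The nuclear-encoded subunits of the respiratory chain were taken as all genes whose array annotation gives a symbol starting with Nduf, Uqcr, Atp5 or Cox4 to Cox8, counting probe sets (the array's groups of oligonucleotides for 1 transcript) with 1 symbol. The rule found 86 of the 18193 genes measured. They comprise 36 genes of complex I, 8 assembly factors of complex I with an Ndufaf symbol, 8 of complex III, 17 of complex IV and 17 of complex V. RNA came from adult male C57BL/6 mice that were GRTH null (KO) or wild type (WT). GRTH, encoded by Ddx25, is the gonadotropin-regulated testicular RNA helicase, made by germ cells and by Leydig cells. The groups were KO and WT total polysome RNA of the testis (3 arrays each), KO and WT spermatocytes (4 each), KO and WT round spermatids (3 each), KO and WT Leydig cells (2 each), and polysome RNA precipitated with GRTH antibody or with IgG (2 each). Polysomes came from sucrose gradients and the cells from centrifugal elutriation, per the labels' protocols. The labels do not say that replicates came from separate animals, so every p-value measures the spread between these arrays, which may be technical.

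Respiratory complexes sit in the inner mitochondrial membrane. Complex I takes electrons from NADH, complex III passes them to cytochrome c, complex IV hands them to oxygen, and complex V, the ATP synthase, uses the proton gradient that results. Most of their subunits are encoded in the nucleus, and the testis is known for germ-cell isoforms of some of them: Cox6b2, Cox7b2 and Cox8c stand beside the broadly expressed Cox6b1, Cox7b and Cox8a, as testis cytochrome c (Cyct) stands beside somatic cytochrome c (Cycs).

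Signals are rescaled array intensities, and a gene is given by its brightest probe set. Differences are log2 differences of signal plus an offset of 16, with the standard error of the limma fit, and a gene was called at a Benjamini-Hochberg adjusted p under 0.05 over the 9097 genes tested in that comparison. Between 79 and 81 of the 86 genes passed the filter on mean signal. KO minus WT, Ddx25 itself differed by -4.35 ± 0.27 in polysome RNA (adjusted p = 0.00017) and by -2.26 to -1.98 in the cell fractions. Summed signals of 14 elongating spermatid markers were lower in KO throughout: 31810 to 60040 in KO against 249800 to 487800 in WT polysome RNA, 78150 to 85490 in KO against 138300 to 167600 in WT spermatocytes, 228700 to 285100 in KO against 376800 to 518300 in WT round spermatids, and 136800 to 139400 in the KO against 214000 to 216700 in the WT Leydig fraction. All 14 were called lower in each of the 4 KO comparisons. Their sums were high in the WT round spermatid fraction itself, so their signal cannot be assigned to elongating spermatids alone. Spermatocyte markers summed to 20680 to 21810 in WT round spermatids and 43330 to 46260 in WT spermatocytes, and round spermatid markers to 95320 to 112600 in WT round spermatids and 29080 to 30350 in WT spermatocytes. Leydig markers summed to 6272 to 6865 in WT and 8528 to 9371 in KO spermatocytes. In round spermatids they summed to 868.3 to 932.1 in WT and 1281 to 1473 in KO. Macrophage markers were lower in WT spermatocytes (391.6 to 426) than in WT round spermatids (2243 to 2301), as were Sertoli markers. The part of such cells in the stage and KO differences was not tested. In these bulk samples fewer cells of a type and less RNA per cell cannot be told apart. The free-text descriptions of WT polysome arrays 1 and 2, KO polysome array 1 and IgG array 1 name another group than the titles, which were followed. Ddx25 read 14833.5 and 21149.1 on these WT polysome arrays and 14623.8 on array 3. It read 1062.9 on KO polysome array 1, beside 598.3 and 805.2 on KO arrays 2 and 3. For the polysome arrays Ddx25 thus went with the genotype of the titles, while it cannot place IgG array 1.

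Because several members moved together between RNA sources, the stretches around their transcription starts were set beside their values. RefSeq promoter windows (GRCm38.p6, 250 bases before to 50 after the start) were matched for 71 of the 86 genes. On either strand, the letters TGACG, the core of a cAMP-response element, lay in 38.2% of the 76 windows of these genes, against 20.8% of all 32851 windows. The consensus of nuclear respiratory factor 1 lay in 21.1% against 4.6%, and CCGGAAG, an ETS-type site, in 22.4% against 8.86%. The full cAMP-response element, whose matches also count as TGACG, lay in 3.95% against 1.79%, the YY1 consensus in 13.2% against 2.75%, TATAAA in 11.8% against 13.6% and CCAAT in 40.8% against 37.4%. Median GC content was 58.5% in the members' windows, against 52.7% in all. A match is a description of letters, not of binding. The promoters of 5 genes are shown because they carry the contrasts described below, with capitals marking matches to TGACG, the nuclear respiratory factor 1 consensus and CCGGAAG on either strand: the broadly expressed Cox6b1 (chr7:30626065-30626364, minus strand), its testis counterpart Cox6b2 (chr7:4753045-4753344, minus strand), the X-linked Ndufa1 (chrX:37191189-37191488, minus strand) and Ndufb11 (chrX:20617570-20617869, minus strand), and Atp5g3 of the ATP synthase (chr2:73911277-73911576, minus strand).
Cox6b1: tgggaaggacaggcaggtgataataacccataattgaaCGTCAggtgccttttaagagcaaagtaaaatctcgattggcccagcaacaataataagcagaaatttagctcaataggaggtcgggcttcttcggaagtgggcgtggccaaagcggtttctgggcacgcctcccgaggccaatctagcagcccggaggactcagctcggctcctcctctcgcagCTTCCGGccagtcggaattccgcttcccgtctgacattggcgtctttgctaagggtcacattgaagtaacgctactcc
Cox6b2: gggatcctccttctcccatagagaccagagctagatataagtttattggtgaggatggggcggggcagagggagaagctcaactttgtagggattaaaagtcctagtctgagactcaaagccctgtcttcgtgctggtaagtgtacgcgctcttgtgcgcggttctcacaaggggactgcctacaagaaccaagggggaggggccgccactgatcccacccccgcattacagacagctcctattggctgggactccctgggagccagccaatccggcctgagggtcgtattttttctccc
Ndufa1: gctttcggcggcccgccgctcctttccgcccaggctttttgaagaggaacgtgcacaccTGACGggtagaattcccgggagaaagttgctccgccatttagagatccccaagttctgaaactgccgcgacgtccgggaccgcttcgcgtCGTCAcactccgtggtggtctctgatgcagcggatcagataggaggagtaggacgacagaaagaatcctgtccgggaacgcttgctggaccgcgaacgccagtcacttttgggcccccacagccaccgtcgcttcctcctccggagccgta
Ndufb11: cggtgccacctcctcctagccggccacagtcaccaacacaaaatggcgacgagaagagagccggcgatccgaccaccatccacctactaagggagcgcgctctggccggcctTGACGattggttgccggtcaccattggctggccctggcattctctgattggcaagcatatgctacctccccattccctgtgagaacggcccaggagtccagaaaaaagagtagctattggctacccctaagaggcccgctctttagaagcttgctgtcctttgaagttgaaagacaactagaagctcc
Atp5g3: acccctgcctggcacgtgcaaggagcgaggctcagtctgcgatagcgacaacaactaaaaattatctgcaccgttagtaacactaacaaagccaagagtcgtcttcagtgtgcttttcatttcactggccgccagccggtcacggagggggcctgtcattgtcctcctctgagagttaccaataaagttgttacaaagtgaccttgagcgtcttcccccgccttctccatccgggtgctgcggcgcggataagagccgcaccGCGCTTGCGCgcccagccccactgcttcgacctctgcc
Cox6b1 holds 1 TGACG and 1 ETS-type site, Ndufa1 holds 2 TGACG matches, Ndufb11 holds 1 and Atp5g3 holds 1 nuclear respiratory factor site. None of these letters is in the Cox6b2 window. The 5 windows are examples and do not stand for their kinds of gene. The window of Cox7b2, also a testis isoform, holds 1 TGACG match. That of the broadly expressed Cox8a holds 1 TGACG match and 2 ETS-type sites. The window of Ndufa4, which is high on polysomes like Ndufa1 and Ndufb11, holds none of the marked letters.

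Between meiotic and haploid germ cells, most respiratory chain transcripts were lower in round spermatids. Of 79 members tested in WT cells, 45 fell and 13 rose in round spermatids relative to spermatocytes, where 87.2% of all genes tested were called (36.2% higher and 51% lower). Their median difference was -0.225, beside -0.235 over all genes, so the shift of the group was close to that of the whole array. Complex I had 24 lower and 6 higher of 35, complex III 4 lower and 0 higher of 8, complex IV 5 and 2 of 12, complex V 8 and 3 of 17, and the assembly factors 4 and 2 of 7. With arrays centred on their medians the split became 55 lower and 6 higher, with the median of all genes at -0.412, and with quantile normalization 64 and 12.

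The steepest falls were in 1 subunit each of complexes I, III and V. Ndufc2, a subunit of the membrane arm of complex I, had signals of 1854, 1886 and 1900.4 in WT round spermatids, against 6929, 6566, 6455 and 6158 in WT spermatocytes. Every round spermatid array lay far below every spermatocyte array (-1.79 ± 0.058, adjusted p = 8.75e-09). Atp5g3, 1 of 3 genes for subunit c of the ATP synthase rotor, had 1809, 1849 and 2057 in round spermatids, against 6702, 6339, 6785 and 6431 in spermatocytes (-1.78 ± 0.064, adjusted p = 1.48e-08), again without overlap. Uqcrc2, a core protein of complex III, fell by 1.71 on the log2 scale. Other falls were those of Ndufa3 (-1.27 ± 0.068) and Ndufb3 (-1.20 ± 0.078) of complex I, Ndufaf7, a methyltransferase of complex I assembly (-1.50 ± 0.071), Atp5a1, the catalytic-ring subunit alpha (-0.98 ± 0.091), and Cox4i1, a regulatory subunit of complex IV (-0.55 ± 0.075). Adjusted p for these 6 ran from 5.27e-08 to 0.000111.

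A few members ran the other way, and 3 of the 5 largest rises were in the ATP synthase. Atp5md, a small membrane subunit that links synthase dimers, had 4338, 4113 and 4297 in round spermatids, against 1237, 1529, 1811 and 1896 in spermatocytes (1.40 ± 0.14, adjusted p = 9.78e-06). Atp5mpl, another small membrane subunit, had 5701, 5306 and 5444, against 2883, 2783, 2983 and 2848 (0.93 ± 0.055, adjusted p = 3.37e-07). In both genes the lowest round spermatid array was above the highest spermatocyte array. Atp5g1, a second gene for subunit c, rose by 0.60 ± 0.076 (adjusted p = 6.77e-05), while the third, Atp5g2, was not called (0.039 ± 0.072). The 3 genes, whose mature protein is the same, therefore differed in their stage change, with the reservation that probe sets of such close relatives can share signal. In complex I, Ndufa13 had 15611, 14183 and 14733 in round spermatids, against 6881, 6548, 8129.7 and 7499 in spermatocytes (1.03 ± 0.083, adjusted p = 2.7e-06), and the groups did not overlap. Atp5md and Ndufa13 were named for the size of their rise after their values were seen.

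**Figure D1:**
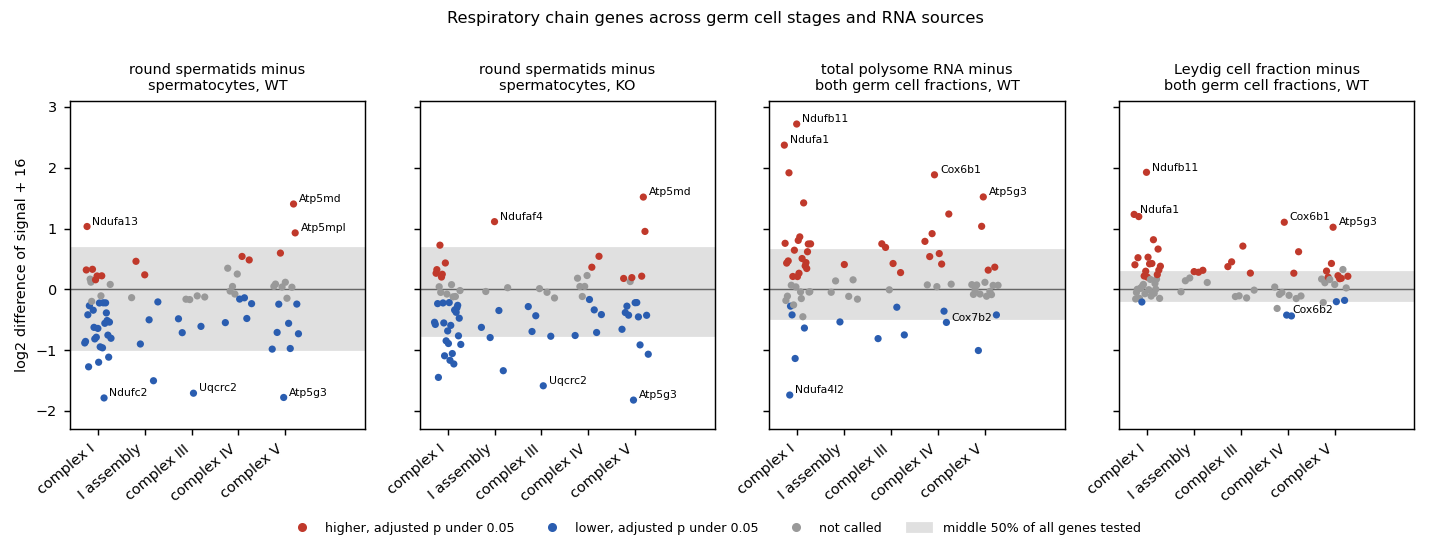
Log2 difference of signal plus 16 (y axis) for every member tested, by complex (x axis), in 4 comparisons: round spermatids minus spermatocytes in WT and in KO, and total polysome RNA or the Leydig cell fraction minus the mean of both germ cell fractions in WT. Red and blue points passed an adjusted p of 0.05 as higher and lower, grey points did not, and the grey band spans the middle 50% of all genes tested; Ndufc2, Uqcrc2 and Atp5g3 lie lowest at the stage change in WT, and Ndufb11 and Ndufa1 highest in polysome RNA.

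The stage change was measured again in KO cells, which share no arrays with WT cells. In KO, 47 of 79 members fell and 14 rose (85.3% of all genes tested were called, 38.8% higher and 46.5% lower), with a median of -0.276 beside -0.101 over all genes. Of the 79 members, 41 were lower in both genotypes, 9 were higher in both and 0 were called in opposite directions. A further 8 were called in WT alone and 11 in KO alone. The same agreement was not counted over all genes, most of which were called at this stage change (87.2% in WT and 85.3% in KO). It is therefore not shown to be particular to these members. Atp5g3 (-1.82 ± 0.068) and Uqcrc2 (-1.59 ± 0.055) again fell furthest, and Atp5md (1.52 ± 0.091) and Atp5mpl (0.95 ± 0.057) again rose. Ndufaf4, an assembly factor, rose by 1.11 ± 0.16 in KO and by 0.24 ± 0.083 in WT (adjusted p = 0.000181 and 0.0236). Its WT call ended with centring (0.062, adjusted p = 0.567) and without round spermatid array 1 (adjusted p = 0.057) or 3 (0.0667). With arrays centred on their medians 7 members rose and 51 fell in KO.

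Signals on total testis polysomes are compared next with the cell fractions. The polysome arrays hold RNA of the whole testis, so the loading of ribosomes and the cell types present cannot be told apart in that comparison. In WT, 36 of 79 members were higher and 13 lower on polysomes than the mean of both germ cell fractions (67.5% of all genes tested were called, 35.9% higher and 31.6% lower), with a median of 0.085 beside 0.062 over all genes. The split depended on the scale: arrays centred on their medians gave 9 higher and 47 lower, with the median of all genes at -0.502, and the deposited values, in which these polysome arrays were partly unscaled, gave 0 and 48. Without the 2 WT polysome arrays of conflicting description it was 30 and 19. The genes named here as higher kept their direction and call under quantile normalization and centring. With the deposited values Atp5g2 (-0.52), Atp5g3 (-0.066) and Cox8a (-0.30) turned round.

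The highest members on polysomes were 2 subunits of the complex I membrane arm, Ndufb11 and Ndufa1, the 2 X-linked genes among the 86. Ndufb11 had 3451, 3153 and 2272 on WT polysomes, against 458, 508 and 430.0 in WT round spermatids and 405, 364, 388 and 432 in WT spermatocytes (2.72 ± 0.13, adjusted p = 3.88e-08). Ndufa1 had 11257, 11679 and 9481 on polysomes, against 1358, 1407 and 1833 in round spermatids and 2580.1, 2669, 3008 and 3019 in spermatocytes (2.37 ± 0.12, adjusted p = 6.09e-08). For both genes every polysome array was above every germ cell array. Among all X-linked genes tested, 88 of 173 (50.9%) were higher and 38 lower on polysomes, with a median of 0.441, where 35.9% of all genes were higher and 31.6% lower. From spermatocytes to round spermatids, 153 of 165 X-linked genes tested rose in WT, where 36.2% of all genes rose. A gene can pass the filter on mean signal through round spermatids alone, so that X-linked count is partly built in. Ndufa1 fell by 0.88 on the log2 scale and Ndufb11 rose by 0.22. With centring Ndufb11 was not called (0.042, adjusted p = 0.63), nor without round spermatid array 1 (adjusted p = 0.0544) or 2 (0.114) or spermatocyte array 2 (0.0728) or 3 (0.0614).

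Ndufa4, named for complex I and since placed with complex IV, had 1665, 1715 and 1422 on WT polysomes, against 329, 374 and 421 in round spermatids and 406, 488, 443 and 480.2 in spermatocytes (1.92 ± 0.11, adjusted p = 1.23e-07). Its paralog Ndufa4l2, a hypoxia-induced gene known to lower complex I activity, ran the opposite way. It had 425, 463 and 505 on polysomes, against 1677, 1746 and 1615 in round spermatids and 1360.0, 1448, 1529.7 and 1644 in spermatocytes (-1.74 ± 0.095, adjusted p = 8.97e-08), the lowest difference of any member tested. Atp5g3 (1.52 ± 0.16), Atp5g2 (1.04 ± 0.15) and Cox8a (1.24 ± 0.14) were also higher on polysomes, and Atp5e, the epsilon subunit of the synthase (-1.01 ± 0.083), Uqcr10 (-0.81 ± 0.083) and Uqcrq (-0.75 ± 0.10), small subunits of complex III, were lower.

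The Leydig cell fraction, set against the same germ cell fractions, was high for many of the same genes. In WT, 34 of 79 members were higher and 5 lower in Leydig cells (52.6% of all genes tested were called, 30.7% higher and 21.9% lower), with a median of 0.161 beside 0.029 over all genes. Ndufb11 had 1611 and 1738 in WT Leydig cells, above all 7 germ cell arrays (1.92 ± 0.079, adjusted p = 1.21e-07). Ndufa1 (1.23 ± 0.11), Ndufa4 (1.20 ± 0.095), Cox6b1 (1.10 ± 0.11) and Atp5g3 (1.02 ± 0.060) followed, with adjusted p between 1.41e-06 and 3.46e-05. The comparison shares its germ cell arrays with the one on polysomes, so likeness between both is partly built in. Germ cell markers were read in the WT Leydig fraction too. Beside Leydig markers summing to 30950 to 31000, it held elongating spermatid markers at 214000 to 216700 (138300 to 167600 in WT spermatocytes). Spermatocyte markers summed to 34880 to 35290 there (43330 to 46260 in WT spermatocytes) and round spermatid markers to 50260 to 50800 (29080 to 30350). Signals of this fraction can therefore not be assigned to Leydig cells alone. Without Leydig array 1 the counts were 19 higher and 0 lower, and without array 2 they were 22 and 0.

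In complex IV, 7 of 12 members were higher and 2 lower on polysomes than in germ cells, where 35.9% of all genes were higher and 31.6% lower. In Leydig cells 3 were higher and 2 lower, near the shares of all genes (30.7% and 21.9%). The broadly expressed Cox6b1 and Cox8a were higher on polysomes, while of the testis isoforms Cox6b2 and Cox8c were not called on polysomes and Cox7b2 was lower there. The difference between isoforms was not tested, and probe sets of different genes do not allow their levels to be compared. Cox6b1, whose protein bridges the complex IV dimer, had 6159, 6097 and 4681 on WT polysomes and 3246 and 3269 in WT Leydig cells, against 1308, 1399 and 1726 in round spermatids and 1393, 1508, 1610.0 and 1704 in spermatocytes. The polysome and Leydig arrays were above all germ cell arrays (polysome difference 1.88 ± 0.13, adjusted p = 3.84e-07). Its testis counterpart Cox6b2 had 16374, 20992 and 21296 on polysomes and 14052 and 14023 in the Leydig fraction, which also holds germ cell markers. It had 23498, 21979 and 16795 in round spermatids and 20011, 17728, 16332 and 15306 in spermatocytes. Polysome and germ cell arrays of Cox6b2 overlapped (0.044 ± 0.14, adjusted p = 0.788), and the Leydig arrays were the lowest (-0.42 ± 0.13, adjusted p = 0.022). That call ended with quantile normalization (-0.038, adjusted p = 0.568), without Leydig array 2 (adjusted p = 0.114) or 1 (0.1135), without the filter (0.0556), with near-identical arrays averaged (0.0648) and in 1 fit of all arrays (0.0624). Cox8a, the broadly expressed subunit 8, had 1438, 1464 and 1339.9 on polysomes, against 861, 776 and 513 in round spermatids and 473, 476, 527 and 512 in spermatocytes (1.24 ± 0.14, adjusted p = 1.76e-05). Its counterpart Cox8c had 11378, 17421 and 13009 on polysomes, against 12732, 11641 and 11412 in round spermatids and 15706, 14183, 13667 and 12736 in spermatocytes (0.085 ± 0.13, adjusted p = 0.58), with overlapping arrays. Cox7b2, the testis form of subunit 7b, was lower on polysomes, with 5932, 7650.3 and 7159 against 8916, 8629 and 7963 in round spermatids and 13468, 12747, 11061 and 10373 in spermatocytes (-0.54 ± 0.12, adjusted p = 0.00163).

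Along the stages, Cox7b2 (-0.48 ± 0.099 in WT) and Cox8c (-0.24 ± 0.081) fell in round spermatids, Cox8a rose (0.48 ± 0.16) and Cox6b2 was not called (0.25 ± 0.13). The Cox8a call ended with the replicate block (0.50, adjusted p = 0.0543), with centring (0.31, adjusted p = 0.0756), with near-identical arrays averaged (0.37, adjusted p = 0.156) and without round spermatid array 1 (adjusted p = 0.0658) or 2 (0.0633). The Cox8c call ended without round spermatid array 2 (adjusted p = 0.0688) or 3 (0.0632) or spermatocyte array 1 (0.0501). A dimmer probe set of Cox8c read 0.96 (adjusted p = 0.00036) in the opposite direction. Cox7a2 rose by 0.54 ± 0.11, a direction that quantile normalization turned round to -0.12, and Cox7a2l, a factor of respiratory supercomplexes, fell by 0.14 on the log2 scale, a call that ended with the replicate block (-0.13, adjusted p = 0.0632) and without most single arrays. Muscle and lung isoforms were dim: Cox4i2 and Cox8b passed the filter in 0 of 11 comparisons, Cox6a2 in 1 and Cox7a1 in 2. The probe sets of 3 further members that are not such isoforms (Cox7c, Ndufb4 and Ndufaf6) also passed in 0. Cox7b was not analysed here.

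**Figure D2:**
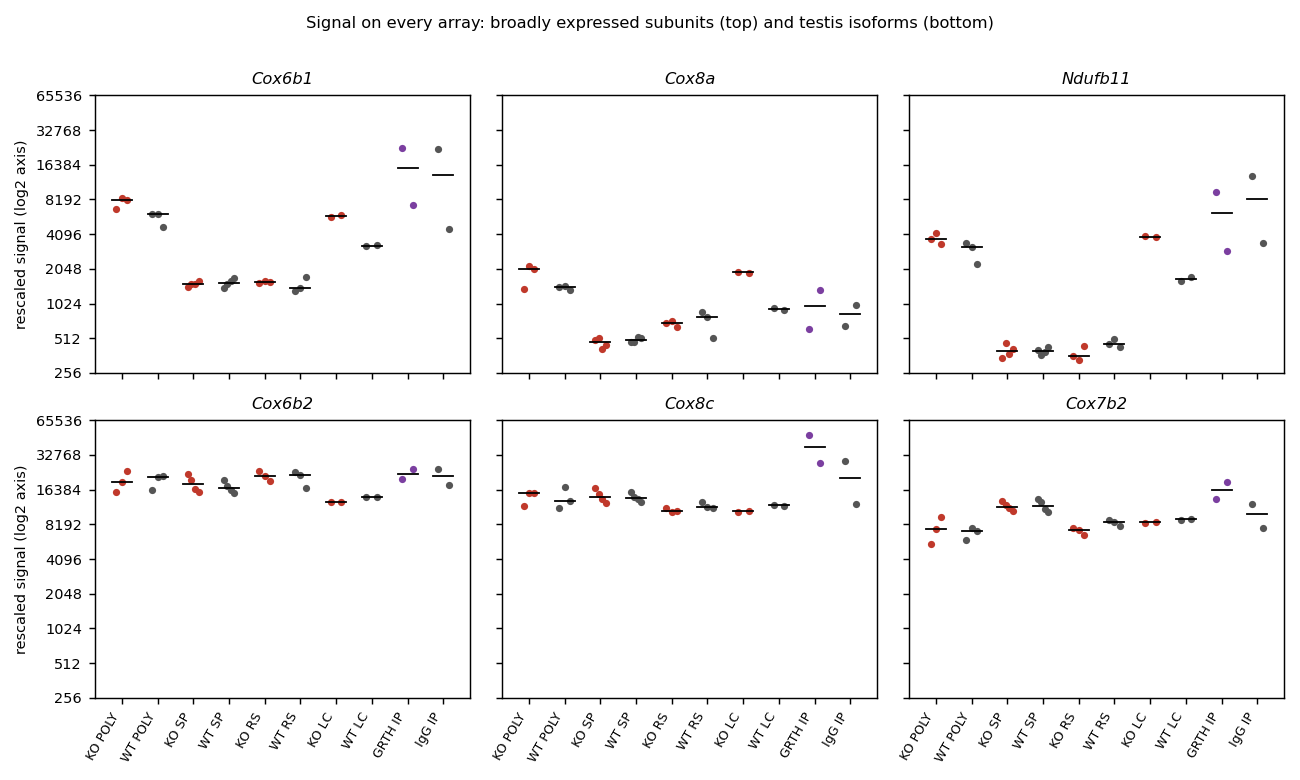
Rescaled signal on every array (y axis, log2-spaced) for Cox6b1 and Cox8a of complex IV and Ndufb11 of complex I (top) and 3 testis isoforms of complex IV (bottom), by group on the x axis; points are arrays, black bars are group medians, and KO arrays are red. In WT, polysome and Leydig arrays of Cox6b1, Cox8a and Ndufb11 lie above the germ cell arrays, polysome and germ cell arrays of Cox6b2 and Cox8c overlap, and those of Cox7b2 lie lower on polysomes.

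In KO total polysome RNA, no respiratory chain gene passed the test. Of 80 members tested, 0 rose and 0 fell by limma, with 4 at an unadjusted p under 0.05, while 6.34% of all genes tested were called (0.572% higher and 5.77% lower). Their median difference was -0.0022, beside 0.125 over all genes. The differences ran from -0.91 to 0.756, so 0 of 80 members changed by 2-fold, against 7.17% of all genes. The 95% confidence intervals were wide, reaching a median of 0.513 to either side of the estimate, but 70 of 80 lay wholly within a 2-fold change in either direction.

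The members nearest the threshold were small subunits. Atp5mpl had 2261, 2372 and 3727 on KO polysomes, against 5098, 4320.5 and 6073 on WT polysomes, with every KO array below every WT array (-0.91 ± 0.26, adjusted p = 0.0761, and 0.00168 with the replicate block). Ndufa4 had 2259, 2679.8 and 3272, against 1665, 1715 and 1422, all KO arrays being higher (0.76 ± 0.22, adjusted p = 0.0817, and 0.00959 with the block). Treating same-numbered arrays as pairs called 7 members: Ndufa4, Atp5g3 (0.54 ± 0.29 without the block) and Atp5g2 (0.50 ± 0.26) as higher, and Atp5mpl, Atp5md (-0.63 ± 0.25), Ndufb7 (-0.62 ± 0.28) and Ndufb8 (-0.51 ± 0.19) as lower. That fit called 24.7% of all genes. Atp5mpl alone was also called with arrays centred on their medians (adjusted p = 0.031) and without KO array 3 (0.0432). These genes were named after their values were seen. Testis isoforms stood near 0, Cox6b2 at -0.019 ± 0.23, Cox7b2 at 0.093 ± 0.25 and Cox8c at 0.033 ± 0.23, with 95% intervals of -0.55 to 0.51, -0.47 to 0.66 and -0.50 to 0.56. Leydig markers summed to 40290 to 65870 on KO polysomes and 21000 to 40510 on WT polysomes, and their part in these differences was not tested.

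**Figure D3:**
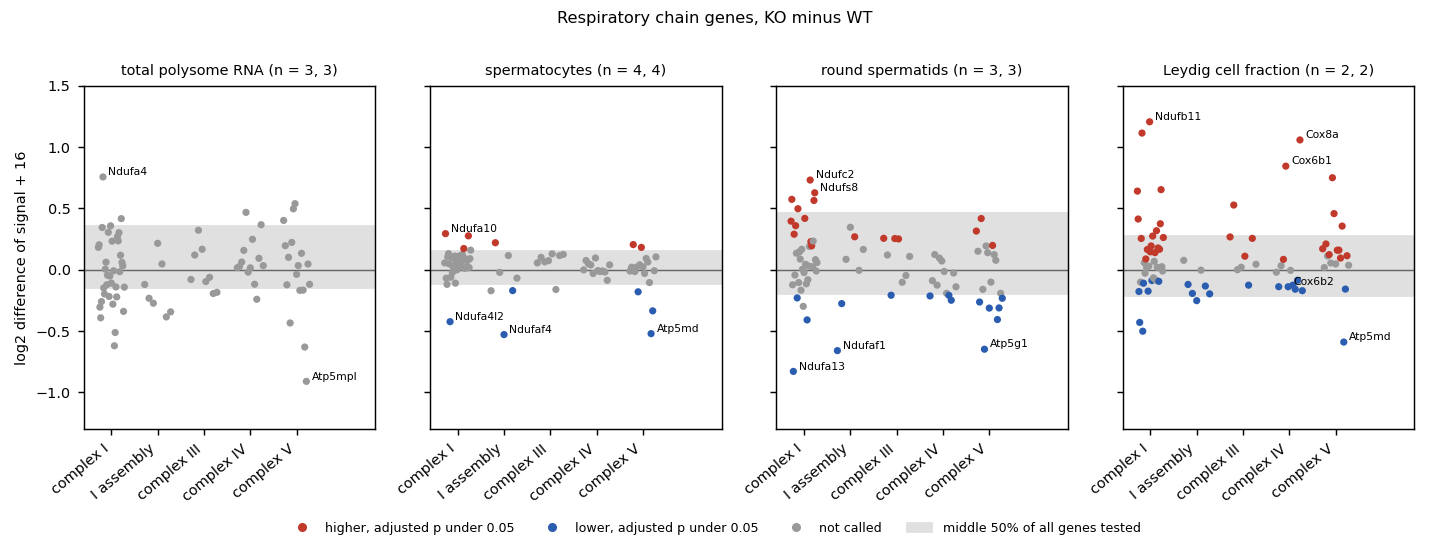
Log2 difference of signal plus 16, KO minus WT (y axis), for every member tested by complex (x axis) in total polysome RNA, spermatocytes, round spermatids and the Leydig cell fraction, with arrays per genotype in each title. Red and blue points passed an adjusted p of 0.05 as higher and lower and grey points did not; none is coloured in polysome RNA, while Ndufa13 and Ndufc2 stand out at opposite ends in round spermatids and Ndufb11 and Ndufa4 lie highest in Leydig cells.

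KO spermatocytes showed small differences in single members. Of 79 tested, 6 rose and 6 fell, where 37.4% of all genes tested were called (19.6% higher and 17.8% lower), and the median was 0.039 beside 0.032 over all genes. The block called 18 higher and 8 lower, quantile normalization 13 and 7, and centring 0 and 6. The shares of all genes called under these settings are not given here, so the shifts are no result about the members. Of the 6 falls, 3 were in the ATP synthase. Atp5mpl had 2299, 2428, 2122 and 2257 in KO spermatocytes, against 2883, 2783, 2983 and 2848 in WT, without overlap (-0.34 ± 0.051, adjusted p = 0.000771). Atp5md had 1213, 1198, 1051 and 987, against 1237, 1529, 1811 and 1896 (-0.52 ± 0.13, adjusted p = 0.0121), with KO array 1 close to the lowest WT array. Atp5g1 fell by 0.18 on the log2 scale. Ndufa4l2 had 1102, 1211, 1044 and 1083, against 1360.0, 1448, 1529.7 and 1644 (-0.42 ± 0.069, adjusted p = 0.00121), every KO array being lower. Ndufaf4 also fell (-0.53 ± 0.11, adjusted p = 0.00419), as did Ndufaf7 (-0.17 ± 0.048). Ndufa10, a supernumerary subunit related to nucleoside kinases, rose most (0.29 ± 0.050, adjusted p = 0.00155), and Atp5c1, the gamma subunit of the rotor (0.21 ± 0.048), Atp5g3 (0.18 ± 0.041) and Ndufaf2 (0.22 ± 0.065) rose less. With centring none of these 4 rises was called (adjusted p between 0.0826 and 0.266), nor was the fall of Atp5g1 (0.066). The calls of Atp5g1, Ndufaf7 and Ndufaf2 also ended without single arrays (adjusted p between 0.0537 and 0.0661). When near-identical arrays were averaged, an alternative that leaves 2 units per genotype, the calls of Ndufa4l2 and Ndufaf4 alone were kept.

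In KO round spermatids, changes were called in both directions. Of 79 members 18 rose and 15 fell, where 63.4% of all genes tested were called (41% higher and 22.4% lower), and the median was 0.044 beside 0.15 over all genes. Quantile normalization made the split 34 and 10. Complex I had 11 higher and 3 lower of 35, complex V 3 higher and 6 lower of 17, complex IV 0 and 3 of 12, complex III 3 and 1 of 8, and the assembly factors 1 and 2 of 7.

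Ndufa13, whose stage-related rise is described above, was the member furthest down. It had 8251, 8648 and 8139.6 in KO round spermatids, against 15611, 14183 and 14733 in WT, with no overlap (-0.83 ± 0.068, adjusted p = 5.61e-05). Atp5g1 had 1571, 1659.6 and 1916, against 2498, 2608 and 2979 (-0.65 ± 0.10, adjusted p = 0.00108), again with every KO array lower. Ndufaf1, a core factor of complex I assembly, fell (-0.66 ± 0.074, adjusted p = 0.000225), as did Atp5md (-0.41 ± 0.079) and Atp5mpl (-0.31 ± 0.062). The peripheral-stalk subunits Atp5h (-0.31 ± 0.065) and Atp5pb (-0.23 ± 0.072) and the testis isoform Cox7b2 (-0.25 ± 0.079, adjusted p = 0.0259) were lower as well, but none of these 3 was called with quantile normalization: Atp5h was then -0.074 (adjusted p = 0.353), Atp5pb -0.097 (adjusted p = 0.203) and Cox7b2 -0.042 (adjusted p = 0.591). The calls of Atp5pb and Cox7b2 also ended without KO array 2 or 3 or WT array 1 or 2 (adjusted p between 0.0625 and 0.0849). A dimmer probe set of Cox8c read -0.70 (adjusted p = 0.00714), where its bright one was not called (-0.14 ± 0.072).

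Ndufc2, the member that fell furthest at the stage change in WT, was higher in KO round spermatids. It had 3233, 3001 and 3165 in KO, against 1854, 1886 and 1900.4 in WT, without overlap (0.73 ± 0.063, adjusted p = 6.78e-05). Of its 4 probe sets, 2 besides the brightest read 0.83 (adjusted p = 0.000171) and 0.78 (adjusted p = 8.02e-05), and the remaining one is not given here. The iron-sulfur subunits Ndufs8 (0.63 ± 0.076, adjusted p = 0.000315) and Ndufs7 (0.56 ± 0.072, adjusted p = 0.000397) rose, as did Ndufa10 (0.57 ± 0.070, adjusted p = 0.000336). Of the 5 other probe sets of Ndufs8, 4 read 0.51 to 1.35 and the dimmest read 0.20 (adjusted p = 0.398). Uqcrc2 (0.25 ± 0.084) rose less, a call that ended with quantile normalization (0.11, adjusted p = 0.319) and without any single array other than WT array 2 (adjusted p between 0.0514 and 0.103), while Atp5g3 was not called (0.14 ± 0.091). Uqcr10 rose by its brightest probe set (0.26 ± 0.074), while its 2 others read -0.36 (adjusted p = 0.00588) and -0.34 (adjusted p = 0.00327). The stage comparison and the KO comparison share the WT round spermatid arrays, so opposite signs in the 2 comparisons are partly built in. Spermatocyte markers summed to 28280 to 28800 in KO and 20680 to 21810 in WT round spermatids, with 5 of 10 called higher and 1 lower. Round spermatid markers summed to 70090 to 75190 in KO and 95320 to 112600 in WT round spermatids. Sertoli markers summed to 1229 to 1320 in KO and 2232 to 2493 in WT there, and spermatogonial markers to 4886 to 5286 in KO and 3132 to 3447 in WT. The part of these cell types in the differences was not tested. Without WT array 1 the counts were 12 higher and 9 lower, and with near-identical arrays averaged 7 and 7. Ndufa13, Ndufaf1, Atp5g1, Ndufc2, Ndufs7, Ndufs8 and Ndufa10 kept their call in both.

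The KO effect differed between round spermatids and spermatocytes for 23 of 79 members (46% of all genes tested), 13 with a more positive and 10 with a more negative effect in round spermatids (32.3% and 13.7% of all genes). The block called 41, and quantile normalization called 27 more positive and 12 more negative, with the shares of all genes under both not given here. Ndufa13 had the most negative difference between the 2 effects (-0.71 ± 0.11, adjusted p = 0.000136), its spermatocyte effect being -0.12 ± 0.075. Atp5c1 (-0.47 ± 0.080) and Ndufaf2 (-0.50 ± 0.097) were higher in KO spermatocytes and lower in KO round spermatids. With near-identical arrays averaged, the round spermatid falls of Atp5c1 (adjusted p = 0.0751) and Ndufaf2 (0.0965) were not called. The Atp5c1 fall also ended with quantile normalization (-0.088, adjusted p = 0.269). The difference between effects was not called for Atp5c1 in 1 fit (adjusted p = 0.0724) or for Ndufaf2 with averaging (0.0505). Ndufaf4 (0.87 ± 0.20, adjusted p = 0.0028), Ndufa4l2 (0.56 ± 0.095, adjusted p = 0.000398) and Ndufc2 (0.56 ± 0.076, adjusted p = 7.68e-05) had more positive effects in round spermatids. Between polysome RNA and round spermatids the KO effect differed for 0 of 79 members by limma (2.79% of all genes tested, 0.539% more positive and 2.25% more negative), with 9 at an unadjusted p under 0.05 and 8 called without the 3 polysome arrays of conflicting description.

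**Figure D4:**
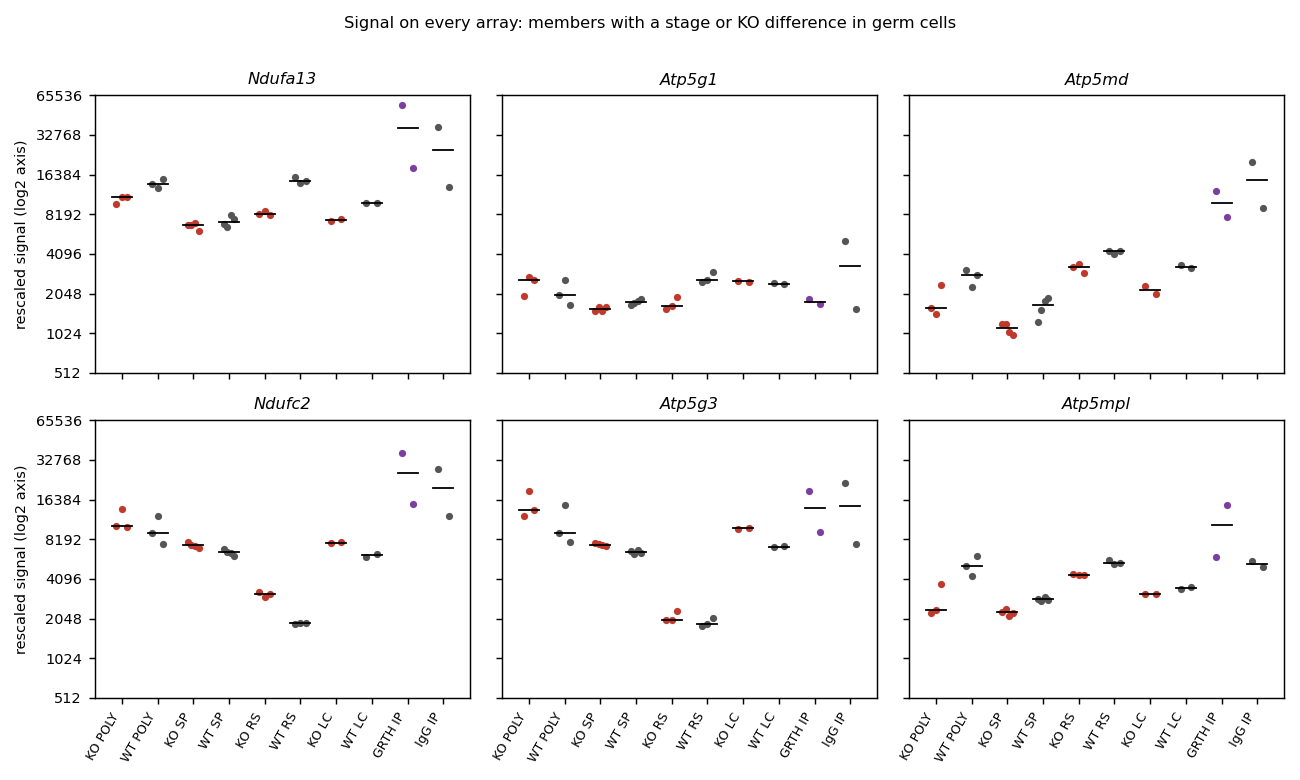
Rescaled signal on every array (y axis, log2-spaced) for Ndufa13, Atp5g1 and Atp5md (top) and Ndufc2, Atp5g3 and Atp5mpl (bottom), by group on the x axis; points are arrays, black bars group medians, and KO arrays are red. In round spermatids, KO arrays lie below WT arrays for Ndufa13, Atp5g1, Atp5md and Atp5mpl and above them for Ndufc2.

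In the KO Leydig fraction, Ndufb11, Ndufa4, Cox8a and Cox6b1 were higher, and the testis isoforms Cox6b2, Cox8c and Cox7b2 were lower by small amounts that were not called with quantile normalization. With 2 arrays per genotype that were nearly identical, small differences were called: 34 of 79 members rose and 21 fell, where 77.9% of all genes tested were called (38.6% higher and 39.3% lower), and the median was 0.047 beside -0.0092 over all genes. Quantile normalization gave 53 and 12, and centring 17 and 49, with the median of all genes at -0.186. Ndufb11 had 3924 and 3839 in KO Leydig cells, against 1611 and 1738 in WT (1.21 ± 0.044, adjusted p = 8.14e-05), and its 2 other probe sets read 1.18 (adjusted p = 3.68e-05) and 1.22 (adjusted p = 3.57e-05). Ndufa4 had 2083 and 2121, against 977 and 948 (1.11 ± 0.026, adjusted p = 3.2e-05), and Cox8a had 1937 and 1904, against 932 and 896 (1.06 ± 0.028, adjusted p = 3.97e-05). These 3 were the only members past 2-fold, against 8.63% of all genes. Cox6b1 (0.84 ± 0.024), Atp5g2 (0.75 ± 0.019), Ndufa1 (0.64 ± 0.024), Uqcr11 (0.53 ± 0.022) and Atp5g3 (0.46 ± 0.022) rose too.

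Cox6b2 had 12676 and 12822 in KO Leydig cells, against 14052 and 14023 in WT (-0.14 ± 0.020, adjusted p = 0.00392). Cox8c (-0.17 ± 0.021) and Cox7b2 (-0.086 ± 0.025) fell by little. With quantile normalization the differences were -0.017 for Cox6b2 (adjusted p = 0.455), -0.059 for Cox8c (adjusted p = 0.0762) and 0.027 for Cox7b2 (adjusted p = 0.276), so the first 2 calls ended and the last turned round. The Cox7b2 call also ended without KO array 1 (adjusted p = 0.148), KO array 2 (0.0891) or WT array 2 (0.115). Ndufa4l2 (-0.50 ± 0.019) and all 5 called assembly factors, among them Ndufaf4 (-0.25 ± 0.043), were lower. Marker sums of the Leydig fraction differed with genotype. Leydig markers summed to 57170 to 58070 in KO and 30950 to 31000 in WT, with 6 of 6 called higher, and macrophage markers were called higher in 7 of 7. Elongating spermatid markers were called lower in 14 of 14. Their part in the subunit differences was not tested.

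Precipitation of polysome RNA with GRTH antibody gave no called member. Of 81 members tested 0 were higher and 0 lower than with IgG by limma, with 2 at an unadjusted p under 0.05, and 0% of all genes tested were called. The 2 arrays within a group differed widely. Ndufa13 had 55697 and 18329 with GRTH antibody, against 37589 and 13102 with IgG, and Cox8c had 48778 and 27821, against 28921 and 12254. The groups overlapped for Ndufa13, and for Cox8c the second GRTH array lay just below the first IgG array. Member differences ran from -1.58 to 1.02 and were not distinguishable from 0 at this spread.

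The other genes of mitochondrial respiration were set beside the same all-gene shares. Of 9 genes listed for complex II and cytochrome c, 8 fell and 1 rose in WT round spermatids relative to spermatocytes, with a median of -1.21. Over all genes tested, 51% fell and 36.2% rose, and their median was -0.235. The list also holds the complex II assembly factors Sdhaf1 and Sdhaf2, and Cyc1, a subunit of complex III. Sdhd, an anchor subunit of succinate dehydrogenase, fell (-2.14 ± 0.072), as did Cyct (-1.33 ± 0.081) and Slc25a31, the testis form of the ATP/ADP carrier (-1.17 ± 0.099), whereas somatic Cycs rose by 1.20 ± 0.071. Adjusted p for these 4 ran from 1.02e-08 to 3.74e-06. On WT polysomes Cycs (2.88 ± 0.14) and Slc25a4, the carrier of somatic tissues (2.91 ± 0.27), were higher than in germ cells, while Cyct (-0.16 ± 0.12) and Slc25a31 (-0.13 ± 0.12) were not called. Of 31 assembly factors on the array outside the Ndufaf genes and that list, 25 were tested at the stage change in WT. Of these, 15 fell and 6 rose, to be read against those same shares of all genes.

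On KO polysomes 0 of 9 genes of the complex II and cytochrome c list, 0 of 27 assembly factors, 0 of 17 genes of pyruvate dehydrogenase and the citrate cycle and 0 of 7 mitochondrial carriers were called, where 6.34% of all genes were. Among 13 genes of mitochondrial DNA expression and their regulators 1 fell, Tfam, which packages mitochondrial DNA (-0.81 ± 0.20, adjusted p = 0.0467). In KO round spermatids the complex II and cytochrome c list had 4 higher and 2 lower of 9, near the shares of all genes (41% higher and 22.4% lower). Sdhd rose (0.65 ± 0.081, adjusted p = 0.000361) while Sdhb, the iron-sulfur subunit of the same complex, fell (-0.43 ± 0.064, adjusted p = 0.000807), and Cyct was not called (-0.082 ± 0.12). In the KO Leydig fraction 38.6% of all genes tested rose and 39.3% fell. There Cycs (0.62 ± 0.019), Slc25a4 (0.89 ± 0.036) and Pdha1, the somatic subunit of pyruvate dehydrogenase (0.93 ± 0.023), rose. The testis counterparts Cyct (-0.11 ± 0.019) and Pdha2 (-0.084 ± 0.020) fell by little, and Slc25a31 is not given here. Values of these genes under the alternatives are not given. Falls of like size in Cox6b2 (-0.14) and Cox7b2 (-0.086) were not called with quantile normalization.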

How the data were processed

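RNA was hybridised to 28 one-colour mouse arrays of 45101 probe sets. The deposited values are linear signal intensities made with GCOS, Affymetrix's array software, per the submitters' processing notes; how it was set is not stated there. With a fraction of 0.02 cut off either end, the deposited intensities of 24 arrays averaged 500. The other 4 were unscaled, with such means of 167.8 and 54.5 (WT polysome 1 and 2) and 129.97 and 29.8 (KO polysome 1 and 2), so every array was rescaled to 500. The number of arrays limits the precision. Array depth has no counterpart here, and no image or background values were used. Precipitated RNA was labelled by a longer procedure than the rest, per the labels' protocols, and was compared only with itself.

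The brightest probe set by mean log2 signal stood for each gene; 48 of the 86 members had several, and 10 probe sets whose annotation adds another symbol to a member's were left out. Values were tested as log2(signal + 16) by lmFit and eBayes of limma 3.58.1 (R 4.3.3, with version 1.17.8 of its data.table package), on the groups of each comparison and the 9097 genes at or above its median mean signal, and adjusted by Benjamini-Hochberg over all of them. The fits were tested on simulated data. Figures were drawn with matplotlib 3.10.9, pandas 2.3.3 and numpy 2.4.6 in Python 3.11.15.

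The members, gene lists and marker lists were chosen with earlier results of these data known. Genes were named by a rule, namely up to 4 called members with the smallest adjusted p per complex and comparison plus the isoform sets, and further names are said to be chosen after their values were seen or are given as members counted. Same-numbered arrays deviated together from their group means, with correlations of 0.436 to 0.668 for polysomes, 0.26 to 0.386 for spermatocytes, 0.138 to 0.247 for round spermatids and 0.188 to 0.261 between the WT stages. This pairing comes from the data and is not stated by the labels. Within germ cell groups, arrays 1 and 2, and spermatocyte arrays 3 and 4, were nearly identical (SD of log2 differences 0.116 to 0.148, against 0.184 to 0.266 for other pairs). They differed by more than rounding and were kept, with their average as an alternative.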

Additional observations from a re-analysis of the deposited data

Results flagged for a closer look

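In WT spermatocytes, Atp5c1 had 1 array far from the other 3: array 1 read 6449, against 7048 for the next lowest, a gap of 0.91 of the group's range. That is above Dixon's limit for a group of 4. The screen covered 54 members in KO and WT spermatocytes, and chance passes about 1 group in 20.

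The KO effect in round spermatids differed from that in spermatocytes by a test of the difference itself for 12 members named in the text or by the rule. The differences, on the log2 scale and round spermatid effect minus spermatocyte effect, were -0.71 for Ndufa13, -0.50 for Ndufaf2, -0.49 for Ndufaf1, -0.47 for Atp5c1, -0.47 for Atp5g1, -0.34 for Atp5pb, -0.34 for Atp5h and -0.20 for Cox7a2l. They were 0.87 for Ndufaf4, 0.56 for Ndufc2, 0.56 for Ndufa4l2 and 0.49 for Ndufs7. Ndufa13, Ndufc2 and Ndufa4l2 kept their call under all 21 alternatives run, whereas that of Cox7a2l was kept under 8 of 21.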

How the results depend on the processing

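Of 168 counts of called members recomputed under the alternatives, 140 stayed within 1.5 times the value reported. On KO polysomes the count of 0 became 1 with arrays centred on their medians, 7 with the replicate block and 19 with all arrays outside the precipitations in 1 fit, and ranged from 0 to 1 when single arrays were left out. In KO spermatocytes 12 became 20 (quantile normalization), 6 (centred), 26 (block), 3 (1 fit) and 2 (near-identical arrays averaged). In KO round spermatids 33 became 14 without a filter, 20 in 1 fit and 14 with arrays averaged, and 21 to 38 without single arrays. In 1 fit, KO Leydig cells gave 12, and the precipitation, fitted with all 28 arrays, gave 15. For polysomes against germ cells averaging gave 31, and for Leydig cells against germ cells 1 fit gave 22, and single arrays left out 19 to 47. The difference of KO effects between germ cell stages had 39 (quantile), 15 (centred), 41 (block), 7 (1 fit) and 4 (averaged), and that between polysomes and round spermatids 1 (quantile), 8 (1 fit) and 8 (without arrays of conflicting description), and 0 to 2 without single arrays. These counts, and those under alternatives in the Results, stand without the share of all genes called in the same fit unless it is printed. They show how calls depend on the setting and are no result about the members. The cause of the shifts was not tested. Averaging leaves fewer arrays, and leaving out the filter adds dim genes.

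Among the results named by the rule, single members that turned round did so under scaling. For polysomes against germ cells, the deposited values gave -0.52 (Atp5g2), -0.066 (Atp5g3), -1.27 (Atp5j2), -0.80 (Cox4i1), -0.67 (Cox6a1), -1.17 (Cox7a2), -0.30 (Cox8a), -0.98 (Ndufaf4), -0.82 (Uqcr11) and -0.90 (Uqcrb), centring -0.25 (Atp5j2), -0.15 (Cox7a2) and -0.16 (Ndufaf4), and quantile normalization -0.17 (Ndufaf4). Quantile normalization also gave 0.030 (Cox4i1) and 0.092 (Uqcrb) in KO round spermatids, 0.0028 (Cox7a2), 0.027 (Cox7b2) and 0.028 (Uqcrfs1) in KO Leydig cells, 0.030 (Cox7a2) for Leydig against germ cells and -0.12 (Cox7a2) at the WT stage change. Centring gave -0.092 (Cox6a1) in KO Leydig cells. Called members outside the rule turned round too, and only some are given here. With centring, Atp5a1 (-0.0058), Ndufs5 (-0.0098) and Uqcrc2 (-0.067) did so in KO Leydig cells. With quantile normalization, Ndufa12 (-0.27), Ndufa7 (-0.16) and Ndufb8 (-0.17) did so at the WT stage change. Same-numbered Leydig arrays (correlation 0.0277) and the 2 numbers of the precipitation were not taken as pairs; there the block gave 56 for KO Leydig cells, 50 for Leydig against germ cells and 0 for the precipitation. Elsewhere the block moved no other count by over 1.5 times. With 2 to 4 arrays a group, dim genes and small differences are the least certain.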

Other observations

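Complex I assembly factors differed among themselves in KO. Ndufaf5 (0.27 ± 0.068, adjusted p = 0.0101) rose in KO round spermatids, where Ndufaf1 (-0.66 ± 0.074) and Ndufaf2 (-0.28 ± 0.072) fell and Ndufaf7 was not called (-0.0048 ± 0.078). The Ndufaf5 call ended with quantile normalization (0.064, adjusted p = 0.396). In the KO Leydig fraction, where 38.6% of all genes rose and 39.3% fell, 0 of 7 rose and 5 fell, Ndufaf8 (-0.20 ± 0.021), Ndufaf3 (-0.19 ± 0.022) and Ndufaf7 (-0.13 ± 0.023) among them. Ndufv2, a flavoprotein-arm subunit of complex I, was tested in 11 comparisons and called in 0 by limma. Its differences in KO ran from -0.34 (polysome RNA, adjusted p = 0.407) to 0.090 (spermatocytes, adjusted p = 0.418).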
